A study of Homo sapiens with 9 samples.

Results

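The genes described here are 40 genes of glycolysis and of the response to low oxygen, chosen by symbol from a list of hypoxia-inducible factors, their hydroxylases, glucose and lactate transporters, glycolytic enzymes and known targets of the pathway. The rule uses no measured value, although the list was drawn up with results of these data known. All 40 had a row among the 17529 genes of the deposited table, and 38 passed the filter on low counts that left 13129 genes for testing. CA12 and BNIP3 did not pass it. Of the 40, 17 are glycolytic enzymes or lactate dehydrogenases and 23 are other members of the response, of which 21 were tested.

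RNA was sequenced in 9 libraries of the established line NCI-H69, labelled as small cell lung cancer cells, 48 hours after transfection. The NC group received a negative control siRNA, the si_CSNK2B group one against CSNK2B, which encodes the beta subunit of the kinase CK2, and the si_P300 group one against P300, the histone acetyltransferase that EP300 encodes, with 3 biological replicates each. All 3 groups thus share the line and the transfection, and no untransfected cells were compared. The labels name no separate siRNA sequences, so the effect of 1 siRNA cannot be told apart from that of its target, and no group is described as grown in low oxygen. Library totals were 13.1 to 18.3 M counts, and a count of 0 allowed up to 0.165 to 0.223 CPM (3 counts, counting error only). CSNK2B was 193, 168 and 185 CPM in NC and 168, 149 and 139 in si_CSNK2B, a log2 fold change of -0.26 ± 0.104 (edgeR adjusted p = 0.0732). EP300 was 41.8, 50.8 and 43 CPM in NC and 40.1, 32.9 and 37.3 in si_P300, a log2 fold change of -0.30 ± 0.127 (edgeR adjusted p = 0.101), so neither targeted transcript passed the test. Markers of neuroendocrine small cell lung cancer were near 0: of 11 listed, 8 had a row and together reached 1.07 to 1.74 CPM per library, against 5231 to 6999 CPM for 7 epithelial markers. The defining neuroendocrine markers thus go against the labelled cell type, and the name NCI-H69 is used here as the labels give it.

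Hypoxia-inducible factor (HIF) is a dimer of an oxygen-regulated alpha subunit, HIF1A or EPAS1, and a stable beta subunit, ARNT. In oxygen, the prolyl hydroxylases EGLN1 and EGLN3 mark the alpha subunit for destruction through the VHL ubiquitin ligase. In low oxygen the dimer binds hypoxia response elements, recruits P300 and its paralog CREBBP as coactivators, and raises glucose uptake, glycolysis, lactate export and pH control. Much of this control acts on the HIF alpha protein, which RNA levels do not measure. Tumour cells often run glycolysis at a high rate in the presence of oxygen.

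In both comparisons with NC, 9 members passed the test as higher and 4 as lower. Promoters were taken from those whose RefSeq start lies within 500 bases of a principal GENCODE start. In each direction, at most 4 with the largest fold changes in si_CSNK2B were kept. The 6 promoters shown were thus chosen on measured values. Each window runs from 250 bases before to 50 bases after the RefSeq start (GRCh38.p14), 5′ to 3′ on the gene's strand. Capitals mark the core of the hypoxia response element, searched as ACGTG or GCGTG on both strands, so that CACGC is GCGTG read on the other strand. SLC2A1 and EPAS1 had fewer reads in both knockdown groups than in NC, and PFKFB4, P4HA2, LDHA and LDHB had more.
SLC2A1 (chr1:42958819-42959118, minus strand): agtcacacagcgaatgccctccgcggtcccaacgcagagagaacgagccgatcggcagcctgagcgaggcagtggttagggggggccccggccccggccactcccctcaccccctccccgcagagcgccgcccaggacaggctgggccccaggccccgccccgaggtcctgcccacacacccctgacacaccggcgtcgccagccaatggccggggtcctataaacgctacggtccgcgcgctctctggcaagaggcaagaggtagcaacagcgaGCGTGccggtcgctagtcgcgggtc
EPAS1 (chr2:46297157-46297456, plus strand): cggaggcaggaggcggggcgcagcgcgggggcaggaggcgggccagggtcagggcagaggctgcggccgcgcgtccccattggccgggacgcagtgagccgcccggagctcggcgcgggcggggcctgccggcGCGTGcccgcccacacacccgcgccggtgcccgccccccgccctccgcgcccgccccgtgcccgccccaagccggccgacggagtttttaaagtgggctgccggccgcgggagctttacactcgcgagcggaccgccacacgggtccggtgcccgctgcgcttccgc
PFKFB4 (chr3:48556754-48557053, minus strand): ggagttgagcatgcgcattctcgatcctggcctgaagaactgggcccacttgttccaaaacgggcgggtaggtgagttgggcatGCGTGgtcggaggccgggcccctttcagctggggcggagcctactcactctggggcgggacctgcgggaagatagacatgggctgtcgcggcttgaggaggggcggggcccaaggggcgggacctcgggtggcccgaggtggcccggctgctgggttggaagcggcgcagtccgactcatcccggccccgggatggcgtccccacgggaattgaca
P4HA2 (chr5:132227042-132227341, minus strand): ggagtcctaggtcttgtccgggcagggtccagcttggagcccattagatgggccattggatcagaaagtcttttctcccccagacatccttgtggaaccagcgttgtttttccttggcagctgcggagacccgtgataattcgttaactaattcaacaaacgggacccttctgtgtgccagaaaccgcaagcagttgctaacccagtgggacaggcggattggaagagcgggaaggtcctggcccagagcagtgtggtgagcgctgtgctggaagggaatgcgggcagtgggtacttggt
LDHA (chr11:18396101-18396400, plus strand): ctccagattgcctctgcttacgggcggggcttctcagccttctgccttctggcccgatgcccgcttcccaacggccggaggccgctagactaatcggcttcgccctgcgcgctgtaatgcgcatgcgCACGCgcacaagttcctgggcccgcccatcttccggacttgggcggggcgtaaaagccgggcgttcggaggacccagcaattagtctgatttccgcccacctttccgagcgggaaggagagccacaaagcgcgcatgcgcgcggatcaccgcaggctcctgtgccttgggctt
LDHB (chr12:21657793-21658092, minus strand): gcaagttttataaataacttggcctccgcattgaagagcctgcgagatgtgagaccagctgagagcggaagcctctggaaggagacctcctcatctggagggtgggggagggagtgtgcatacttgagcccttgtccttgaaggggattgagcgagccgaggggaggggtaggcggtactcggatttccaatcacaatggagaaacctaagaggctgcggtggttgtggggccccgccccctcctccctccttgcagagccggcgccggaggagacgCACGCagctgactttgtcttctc
The element core stood before the start in EPAS1, PFKFB4 and LDHA and just after it in SLC2A1 and LDHB, and the P4HA2 window held no match. Of 40 members, 36 had a promoter in the RefSeq table, and SLC2A3, SLC16A1, BNIP3L and NDRG1 are named only. A core was present in 29 of these 36 promoters (80.6%), in 59.3% of the promoters of tested genes and in 48.45% of all 35116 promoters. It was present in 14 of 17 enzyme promoters and in 15 of 19 promoters of other members. The E-box CACGTG, which also counts as a core on both strands, was in 16.7% of member promoters and 9.155% of those of tested genes. The letters TGACG, part of the cyclic AMP response element, were in 19.4% and 31.0%. Each member enters these shares with a single promoter, while the 13129 tested genes had 15435 promoters between them, so the units differ. The limit of 500 bases was applied only to the promoters shown. A match is only a description of the letters in a window.

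One library stood apart in these genes. The first si_P300 library had the highest level of all 9 libraries in 23 of 38 tested members, while it was highest in 13.9% of all tested genes. It exceeded the mean of the other 2 si_P300 libraries by 1.5 times or more in 13 of 21 other members and in 2 of 17 enzymes, against 9.73% of all tested genes. The ratio was 12.98 for ANKRD37, 11.9 for ADM, 4.34 for CA9, 3.37 for NDRG1, 3.03 for PDK1 and 2.99 for SLC2A3. Its depth of 17.5 M counts lay above the 14.3 and 16.2 M of the other 2, and its summed leukocyte marker list, nearly all LYZ, was 2831 CPM against 4442 and 3737 CPM. That list was 2252 to 2442 CPM in NC and 3600.3 to 3669 CPM in si_CSNK2B, while PTPRC, the defining marker of leukocytes, was 0.385 to 1.16 CPM across libraries. The part of these differences in the results was not tested, and the values that rest most on this library are given with and without it. Because the library was singled out by its levels in these same genes, leaving it out lowers the si_P300 mean of those where it was high. Values and p without it describe the remaining libraries and are no independent test of a fall. In NC the first library was the highest of its group in 30 of 38 members, against 28.5% of all tested genes. In si_CSNK2B it was the second library, in 22 of 38 members against 32.2%, and in si_P300 the first, in 29 of 38 against 37.6%. Each group thus had a library that was the highest of its group in most of these members.

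**Figure D1:**
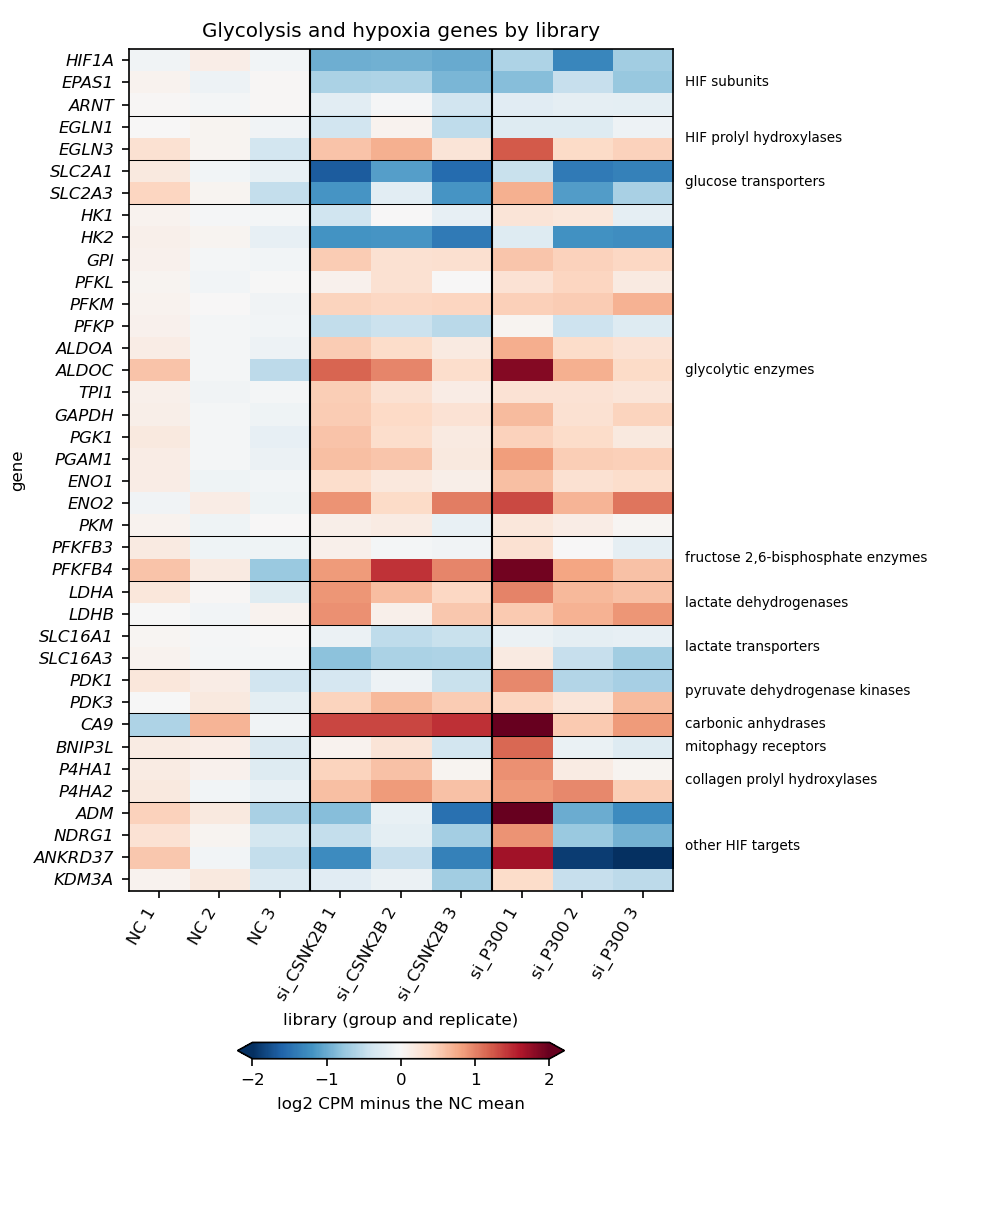
Each row is a tested gene, grouped by role, and each column a library; colour gives the log2 CPM of a library minus the NC mean, with values past 2 either way shown at the end of the scale. The glycolytic rows are mostly warm in both knockdown groups, HIF1A, EPAS1, SLC2A1 and HK2 are cool, and the first si_P300 library is warm in rows such as ADM, NDRG1, PDK1 and ANKRD37 where the other 2 si_P300 libraries are cool.

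More glycolytic enzymes rose than fell against NC, while the HIF alpha subunits, the main glucose transporter and hexokinase 2 fell. In si_CSNK2B, 11 of 38 tested members were higher and 7 lower at an edgeR adjusted p under 0.05, where 34.0% of all tested genes were called, 16.2% as higher and 17.8% as lower. In si_P300, 14 were higher and 4 lower, where 28.3% of all tested genes were called, 13.6% as higher and 14.7% as lower. The share of members called lower in si_CSNK2B was thus near that of all genes. The libraries of si_CSNK2B and NC did not overlap in 20 of 38 members, against 53.0% of all genes, and those of si_P300 and NC in 22, against 46.5%, both near the background. In bulk RNA, fewer cells of a type and less RNA per cell cannot be told apart.

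The enzymes and the other members had unlike counts and medians. Of 17 enzymes, 8 were higher and 2 lower in si_CSNK2B, with a median log2 fold change of 0.37, against 0.037 over all tested genes. Of 21 other members, 3 were higher and 5 lower, with a median of -0.31. In si_P300, 9 enzymes were higher and 1 lower, with a median of 0.46, against 0.042 over all genes, and of the other members 5 were higher and 3 lower, with a median of 0.053. Without the first si_P300 library, 29.3% of 13262 genes were called, 14.0% as higher and 15.3% as lower, and the median of all genes was 0.029. In that setting 6 enzymes were higher and 2 lower, and 2 other members were higher and 10 lower, with a median of -0.21 for the other members. These counts follow the removal of a library picked for its high levels in the same members, so they are a description only. Both comparisons use the same 3 NC libraries, so their values for a gene are not independent of each other. Leaving out the second or the third NC library left 10 and 8 members called in si_CSNK2B and 11 and 10 in si_P300, against 18 in each with all libraries. Over all genes, 3429 and 2928 were then called in si_CSNK2B, against 4462, and 2620 and 2191 in si_P300, against 3709. With library sizes alone in place of normalization factors, 66.0% of called genes were higher in each comparison, against 47.6% and 48.1%, and the median of all genes moved to 0.16 and 0.15. Under that scaling 10 enzymes were higher and 2 lower in si_CSNK2B, and 13 higher and 1 lower in si_P300.

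**Figure D2:**
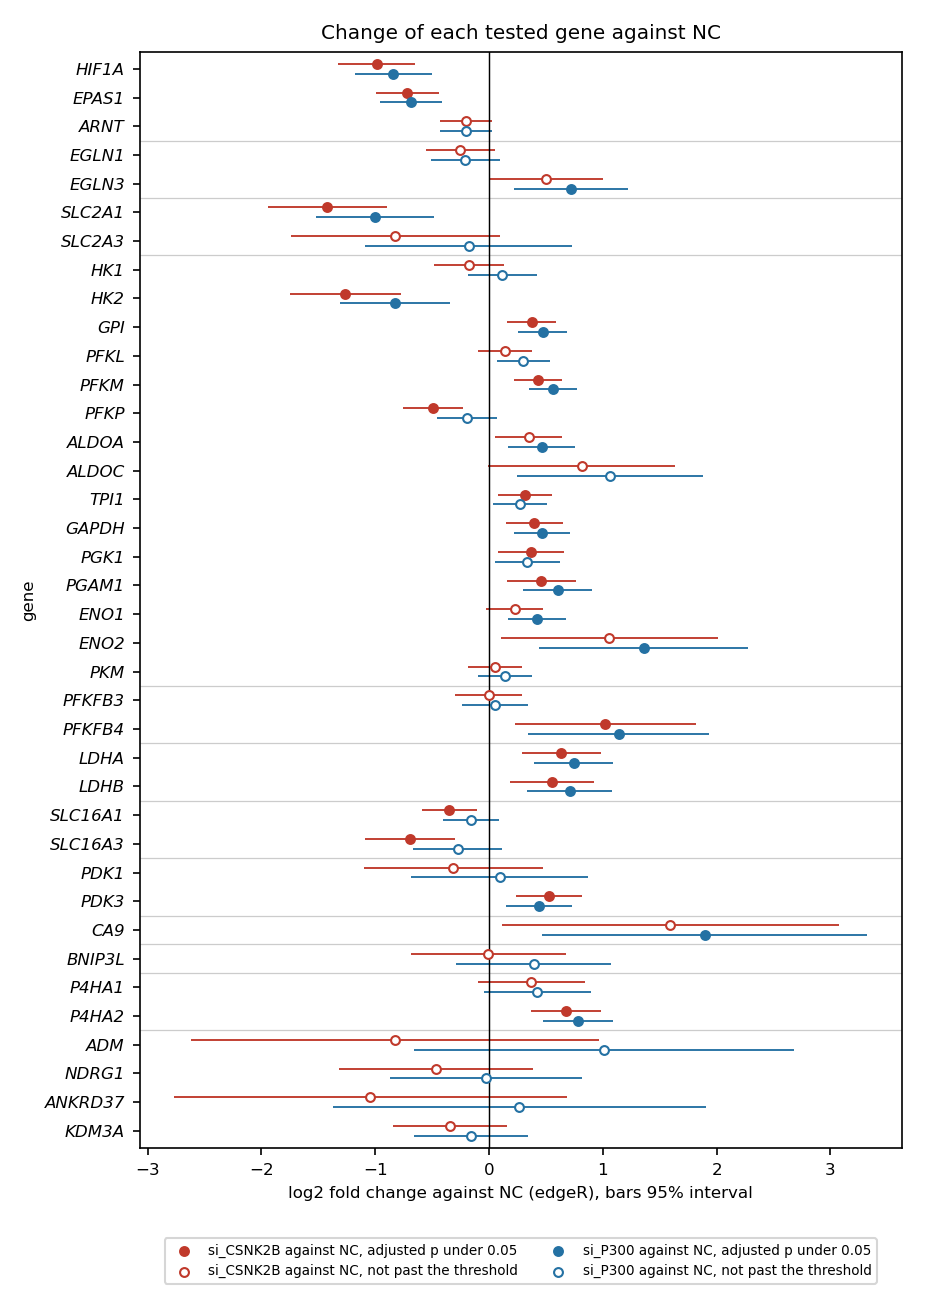
Points are log2 fold changes against NC from edgeR for the 38 tested genes, with bars of the 95% interval; red is si_CSNK2B, blue is si_P300, and filled points passed an adjusted p under 0.05. HIF1A, EPAS1, SLC2A1 and HK2 lie left of 0 with filled points in both comparisons, and the widest intervals belong to ADM, ANKRD37 and CA9.

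Both HIF alpha subunits fell in the knockdown groups. HIF1A (gene ID 3091, GRCh38 chromosome 14, 61695513 to 61748259, plus strand) encodes the oxygen-regulated subunit found in most cells. It was 352, 406 and 356 CPM in the NC libraries, 188, 191 and 185 in those of si_CSNK2B, and 243, 151 and 229.7 in those of si_P300. Every knockdown library lay under every NC library, and the 3 si_CSNK2B libraries stood close together. The log2 fold change was -0.98 ± 0.155 (edgeR adjusted p = 0.000624) in si_CSNK2B and -0.84 ± 0.154 (edgeR adjusted p = 0.00219) in si_P300. EPAS1, the second alpha subunit, was 72.5, 64.1 and 70 CPM in the NC libraries, 44.2, 44.8 and 36.6 in those of si_CSNK2B, and 38.2, 49.9 and 40.5 in those of si_P300. Its groups did not overlap either, and its log2 fold change was -0.72 ± 0.126 (edgeR adjusted p = 0.00126) in si_CSNK2B and -0.68 ± 0.126 (edgeR adjusted p = 0.00221) in si_P300. These calls held in all 19 alternatives for HIF1A and for EPAS1 in each comparison. ARNT, the beta partner, was 55.6 to 73.6 CPM across libraries and did not pass, at -0.20 ± 0.104 (edgeR adjusted p = 0.162) in si_CSNK2B and -0.20 ± 0.104 (edgeR adjusted p = 0.169) in si_P300.

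Of the hydroxylases that read oxygen for HIF, EGLN3 rose in si_P300 and EGLN1 did not pass. EGLN1, the main HIF prolyl hydroxylase in most cells, ran from 173 to 260.4 CPM and did not pass, at -0.25 ± 0.139 (edgeR adjusted p = 0.183) in si_CSNK2B and -0.21 ± 0.139 (edgeR adjusted p = 0.287) in si_P300. EGLN3, whose gene is itself a HIF target, was 275, 231 and 172 CPM in the NC libraries, 331, 364 and 265 in those of si_CSNK2B, and 522, 289.8 and 306 in those of si_P300. All knockdown libraries but 1, the third of si_CSNK2B, lay above the highest NC library. EGLN3 rose in si_P300, with a log2 fold change of 0.72 ± 0.229 (edgeR adjusted p = 0.0352), and was 0.50 ± 0.229 (edgeR adjusted p = 0.11) in si_CSNK2B. Without the first si_P300 library its value in si_P300 was 0.40 ± 0.176 (edgeR adjusted p = 0.11), and the call was also lost without the second or the third NC library (0.71 and 0.56, edgeR adjusted p = 0.0928 and 0.144) or the first si_CSNK2B library (edgeR adjusted p = 0.0509). It was lost too with only the 6 libraries compared (edgeR adjusted p = 0.0617) and by limma on log2(FPKM + 1) with no filter (adjusted p = 0.0599). EGLN3 made up 59.6% ± 4.96 of the summed FPKM of both hydroxylases (SD, n = 3) in NC, 71.8% ± 2.31 in si_CSNK2B and 73.0% ± 6.67 in si_P300.

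SLC2A1, the GLUT1 transporter that brings glucose into most cells, fell furthest among the members that passed in si_CSNK2B. It was 3117, 2601 and 2457 CPM in the NC libraries, 859, 1262 and 934 in those of si_CSNK2B, and 1996, 1018 and 1065 in those of si_P300. The NC libraries all lay above the knockdown libraries, and the first si_P300 library stood between NC and the rest. The log2 fold change of SLC2A1 was -1.42 ± 0.24 (edgeR adjusted p = 0.001) in si_CSNK2B and -1.003 ± 0.238 (edgeR adjusted p = 0.00898) in si_P300, or 2.68-fold and 2.00-fold lower. Without the first si_P300 library it was -1.39 ± 0.17 (edgeR adjusted p = 9.81e-05) in si_P300. Its call held in all 19 alternatives of each comparison. SLC2A3, the high-affinity transporter GLUT3, was 942, 732 and 502 CPM in the NC libraries, 310.0, 609 and 309 in those of si_CSNK2B, and 1153, 324 and 447 in those of si_P300. The first si_P300 library was the highest of the 9, and the groups overlapped. SLC2A3 did not pass, at -0.83 ± 0.421 (edgeR adjusted p = 0.149) in si_CSNK2B and -0.18 ± 0.418 (edgeR adjusted p = 0.777) in si_P300. Its si_P300 value without the first library was -0.91 ± 0.306 (edgeR adjusted p = 0.0403), which is no independent test of a fall. With that library out of the shared model, SLC2A3 passed in si_CSNK2B, at -0.83 (edgeR adjusted p = 0.0278). Reads of SLC2A3 and of its near-identical copy SLC2A14 may have been split by the authors' counting.

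**Figure D3:**
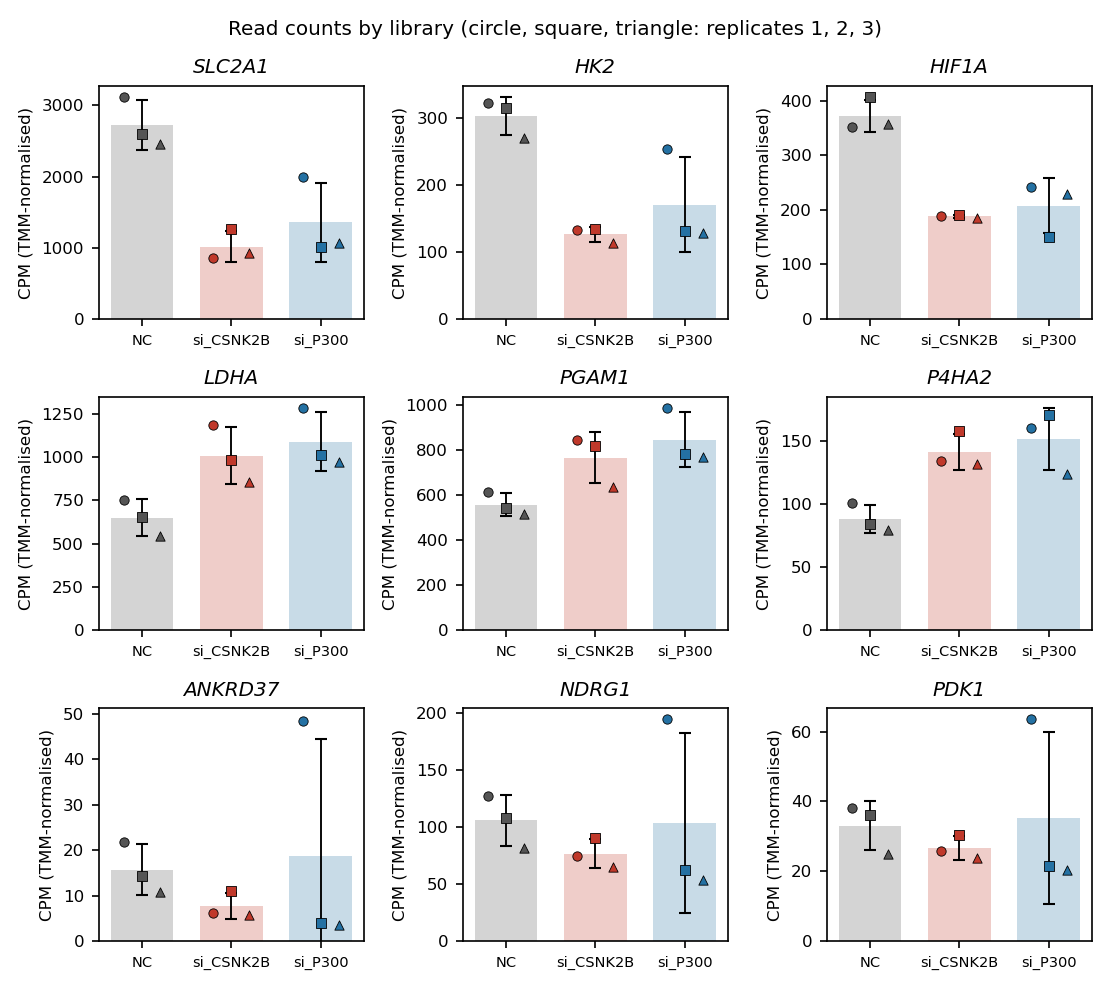
Bars give the mean TMM-normalised CPM of a group, error bars the SD of 3 libraries, and symbols the libraries, with circles, squares and triangles for replicates 1, 2 and 3; each axis starts at 0. SLC2A1, HK2 and HIF1A are lower and LDHA, PGAM1 and P4HA2 higher in every knockdown library than in NC, while ANKRD37, NDRG1 and PDK1 are high in the first si_P300 library only among the 3 of that group.

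Hexokinases trap glucose in the cell by phosphorylation. HK2, the inducible form often high in tumours, was 323, 315 and 270.4 CPM in the NC libraries, 132, 134 and 113 in those of si_CSNK2B, and 253, 131 and 128 in those of si_P300. Its knockdown libraries all lay under NC, with the first si_P300 library nearest to it. HK2 fell, with a log2 fold change of -1.26 ± 0.223 (edgeR adjusted p = 0.00129) in si_CSNK2B and -0.83 ± 0.22 (edgeR adjusted p = 0.016) in si_P300, and of -1.23 ± 0.121 (edgeR adjusted p = 1.95e-05) in si_P300 without that library. In si_P300 the call was lost without the first NC or the third si_P300 library (-0.78 and -0.66, edgeR adjusted p = 0.0561 and 0.0634). HK1, the form expressed in most tissues, ran from 31.3 to 49.5 CPM and did not pass, at -0.18 ± 0.14 (edgeR adjusted p = 0.35) in si_CSNK2B and 0.12 ± 0.14 (edgeR adjusted p = 0.562) in si_P300. HK2 made up 82.9% ± 0.877 of the summed FPKM of HK1 and HK2 in NC, 69.3% ± 3.72 in si_CSNK2B and 70.3% ± 6.61 in si_P300. This pair leaves out HKDC1, and with HKDC1 counted the share of HK2 went the other way, as given below.

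HKDC1, a hexokinase outside the member list, had the lowest p of the further glycolytic genes in both comparisons. It was 252, 265 and 233 CPM in the NC libraries, 21.2, 27.6 and 19.5 in those of si_CSNK2B, and 51.6, 17 and 28.4 in those of si_P300. All knockdown libraries lay far under NC, with the first si_P300 library nearest to it. Its log2 fold change was -3.46 ± 0.314 (edgeR adjusted p = 1.48e-05) in si_CSNK2B and -2.94 ± 0.305 (edgeR adjusted p = 5.92e-05) in si_P300. On the FPKM scale, the mean of HKDC1 was 66.2 ± 4.81 in NC, 6.61 ± 1.16 in si_CSNK2B and 9.34 ± 5.26 in si_P300. The sum of HK1, HK2 and HKDC1, chosen after these values were seen, was 131 ± 10.3 FPKM in NC, 41.8 ± 3.45 in si_CSNK2B and 55.2 ± 20.9 in si_P300. Of this sum, HK2 made up 41.1% ± 1.18 in NC, 58.4% ± 3.54 in si_CSNK2B and 58.6% ± 3.20 in si_P300. HKDC1 made up 50.5% ± 1.25, 15.8% ± 1.41 and 16.4% ± 4.51.

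Phosphofructokinase commits sugar to glycolysis, and of its 3 isozymes PFKM rose in both groups while PFKP fell in si_CSNK2B. PFKM, the muscle-type isozyme, was 69.4, 66.1 and 62.6 CPM in the NC libraries, 89.8, 88.3 and 88.8 in those of si_CSNK2B, and 92.4, 93.6 and 107 in those of si_P300. All knockdown libraries lay above NC. PFKM rose, with a log2 fold change of 0.43 ± 0.0971 (edgeR adjusted p = 0.00547) in si_CSNK2B and 0.57 ± 0.097 (edgeR adjusted p = 0.00147) in si_P300, in all 19 alternatives of each comparison. PFKP, the platelet-type isozyme, was 376, 343 and 342 CPM in the NC libraries, 251, 262 and 242 in those of si_CSNK2B, and 368, 265 and 295 in those of si_P300. It fell in si_CSNK2B at -0.49 ± 0.121 (edgeR adjusted p = 0.00905) and was -0.19 ± 0.121 (edgeR adjusted p = 0.252) in si_P300. Its si_P300 value without the first library was -0.34 ± 0.106 (edgeR adjusted p = 0.0297), a description of the remaining libraries only. PFKL, the liver-type isozyme, ran from 98.5 to 137 CPM and did not pass, at 0.14 ± 0.108 (edgeR adjusted p = 0.326) in si_CSNK2B and 0.30 ± 0.108 (edgeR adjusted p = 0.0548) in si_P300. PFKP held 71.9% ± 0.464 of the summed FPKM of the 3 in NC, 60.5% ± 0.554 in si_CSNK2B and 62.8% ± 4.81 in si_P300, and PFKM 10.6% ± 0.212, 16.9% ± 0.771 and 15.8% ± 2.34. The summed FPKM itself was 194 ± 11.2, 180.3 ± 7.60 and 212 ± 25.4.

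**Figure D4:**
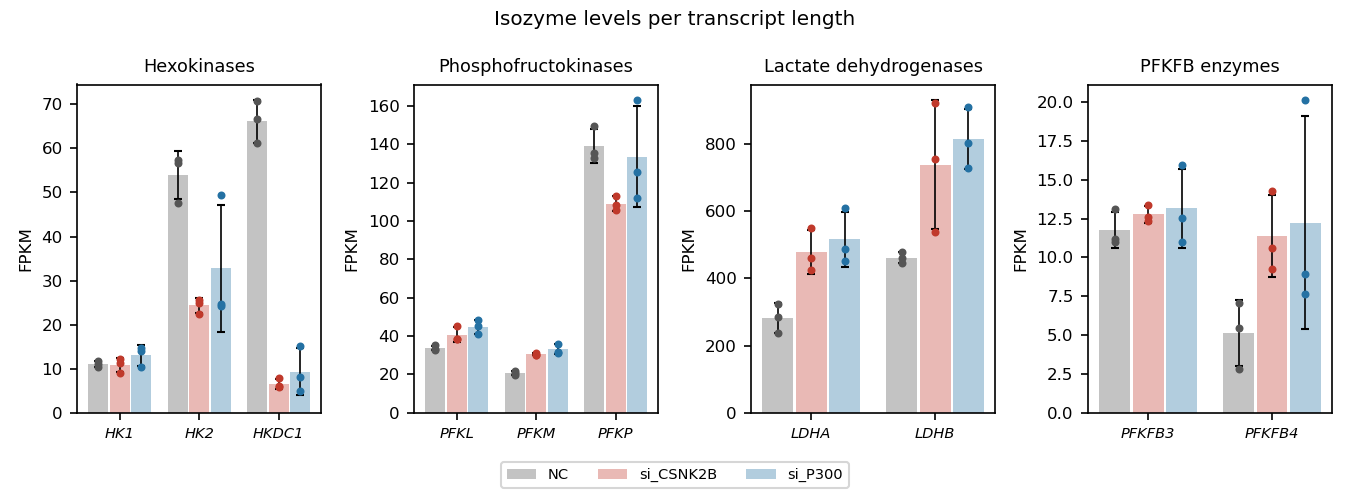
Bars are mean FPKM per group with SD over 3 libraries, and points are libraries, for hexokinases, phosphofructokinases, lactate dehydrogenases and the PFKFB enzymes; each axis starts at 0. HK2 and HKDC1 are lower in both knockdown groups, PFKM, LDHA and PFKFB4 are higher, and HK1 and PFKFB3 differ little between groups.

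Of the enzymes from glucose phosphate to pyruvate, GPI, GAPDH and PGAM1 rose in both groups. GPI, which turns glucose 6-phosphate into fructose 6-phosphate, was 642, 586 and 583 CPM in the NC libraries, 857, 746 and 749.7 in those of si_CSNK2B, and 881, 829.5 and 801 in those of si_P300. Its groups did not overlap, and its log2 fold change was 0.38 ± 0.0987 (edgeR adjusted p = 0.012) in si_CSNK2B and 0.47 ± 0.0988 (edgeR adjusted p = 0.00455) in si_P300. ALDOA, the main aldolase here, was 955, 839 and 807 CPM in the NC libraries, 1225, 1112 and 977 in those of si_CSNK2B, and 1425, 1111 and 1052 in those of si_P300. All knockdown libraries lay above NC, and it passed in si_P300, at 0.46 ± 0.135 (edgeR adjusted p = 0.024), but not in si_CSNK2B, at 0.35 ± 0.135 (edgeR adjusted p = 0.0641). ALDOC, the brain-type aldolase, was 12.1, 7.94 and 5.65 CPM in the NC libraries, 18.4, 16.3 and 10.5 in those of si_CSNK2B, and 29.4, 13.5 and 10.6 in those of si_P300, and its groups overlapped. It did not pass, at 0.81 ± 0.377 (edgeR adjusted p = 0.114) in si_CSNK2B and 1.06 ± 0.375 (edgeR adjusted p = 0.0525) in si_P300, and was 0.49 ± 0.294 (edgeR adjusted p = 0.231) in si_P300 without the first library, whose level was 2.43 times the mean of the other 2.

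Further down the pathway, GAPDH, the enzyme that oxidises glyceraldehyde 3-phosphate, was 3071, 2756 and 2650.2 CPM in the NC libraries, 4002, 3723 and 3438 in those of si_CSNK2B, and 4387, 3470.0 and 3850.2 in those of si_P300. It rose in both groups, at 0.40 ± 0.114 (edgeR adjusted p = 0.0192) in si_CSNK2B and 0.47 ± 0.114 (edgeR adjusted p = 0.0107) in si_P300. PGAM1, the phosphoglycerate mutase, was 615, 542 and 515 CPM in the NC libraries, 844, 819 and 636 in those of si_CSNK2B, and 987, 784 and 769 in those of si_P300. It rose by 0.46 ± 0.138 (edgeR adjusted p = 0.0236) in si_CSNK2B and 0.60 ± 0.138 (edgeR adjusted p = 0.00755) in si_P300 on the log2 scale. GAPDH and PGAM1 libraries did not overlap with NC in either comparison. TPI1, which interconverts the triose phosphates, was 530 to 596 CPM in NC and 612 to 784 in the knockdown libraries, and passed in si_CSNK2B only by a narrow margin, at 0.32 ± 0.108 (edgeR adjusted p = 0.0392) in si_CSNK2B and 0.27 ± 0.108 (edgeR adjusted p = 0.0787) in si_P300. PGK1, the first ATP-making step, overlapped between groups and was 0.37 ± 0.132 (edgeR adjusted p = 0.0481) in si_CSNK2B and 0.34 ± 0.132 (edgeR adjusted p = 0.0765) in si_P300. GENCODE 29 names 62 pseudogenes of GAPDH and 13 of PGAM1, which the authors' counting could have mixed with these genes.

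Enolase and pyruvate kinase close the pathway. ENO1, the main enolase, was 1695, 1435 and 1462 CPM in the NC libraries, 1942, 1770.2 and 1658 in those of si_CSNK2B, and 2315, 1892 and 1941 in those of si_P300. It rose in si_P300, at 0.42 ± 0.116 (edgeR adjusted p = 0.0184), and was 0.23 ± 0.116 (edgeR adjusted p = 0.15) in si_CSNK2B, where the third of its libraries lay within NC. ENO2, the neuronal enolase and a marker of neuroendocrine cells, was near the floor at 0.233 to 0.825 CPM, with a log2 fold change of 1.06 ± 0.437 (edgeR adjusted p = 0.0818) in si_CSNK2B and 1.36 ± 0.42 (edgeR adjusted p = 0.0315) in si_P300, and lies over LRRC23 on the same strand. PKM, pyruvate kinase, was 1349, 1212 and 1284 CPM in the NC libraries, 1394, 1429.6 and 1161 in those of si_CSNK2B, and 1504, 1414 and 1314 in those of si_P300. Its groups overlapped and it did not pass, at 0.05 ± 0.108 (edgeR adjusted p = 0.738) in si_CSNK2B and 0.14 ± 0.108 (edgeR adjusted p = 0.361) in si_P300.

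The calls of several enzymes changed when single libraries or settings were changed. In si_CSNK2B, GPI, GAPDH, PGAM1, TPI1 and PGK1 no longer passed without the second NC library (edgeR adjusted p = 0.0576, 0.0725, 0.0822, 0.145 and 0.145) or the third (0.059, 0.0836, 0.0989, 0.13 and 0.187). PGAM1, TPI1 and PGK1 also lost the call without the first si_CSNK2B library (edgeR adjusted p = 0.075, 0.115 and 0.159) or the second (0.0757, 0.071 and 0.085). TPI1 lost it without the first NC library (edgeR adjusted p = 0.0616), and TPI1 and PGK1 without the third si_P300 library (0.0554 and 0.0541). PGK1 lost it without the second si_P300 library (edgeR adjusted p = 0.0516). In si_P300, ALDOA, ENO1 and GAPDH did not pass without the second NC library (edgeR adjusted p = 0.0962, 0.0949 and 0.0537) or the third (0.102, 0.08 and 0.0556). Without the first si_P300 library, ALDOA was 0.32 ± 0.124 (edgeR adjusted p = 0.0721), ENO1 was 0.32 ± 0.119 (edgeR adjusted p = 0.0571) and ENO2 was 1.16 ± 0.505 (edgeR adjusted p = 0.103). ENO2 also lost the call without any 1 NC library (edgeR adjusted p = 0.0735 to 0.109) and without the third si_P300 library (0.0759). ALDOA in si_CSNK2B gained a call without the third of its libraries (0.43, edgeR adjusted p = 0.0463) or the first si_P300 library (0.0267). TPI1 in si_P300 gained one without the first si_CSNK2B library (edgeR adjusted p = 0.0417), and PFKL without the second or the third (0.0428 and 0.0495). ALDOC gained one in si_CSNK2B without the first si_P300 library (edgeR adjusted p = 0.0273), and in si_P300 without the first NC (0.0396), second si_P300 (0.0392) or the third si_P300 library (0.0282). Among processing settings, TPI1 and PGK1 in si_CSNK2B lost their calls with no filter on low counts (edgeR adjusted p = 0.0669 and 0.0621), and PGK1 with RLE factors (0.0538). ENO2 in si_P300 lost its call with DESeq2 (adjusted p = 0.126) and with no filter (edgeR adjusted p = 0.0664). PFKP in si_CSNK2B and HK2 in si_P300 lost theirs by limma on log2(FPKM + 1) with no filter (adjusted p = 0.0743 and 0.0525). Of enzymes that did not pass, ALDOA passed in 10 of 19 alternatives and ENO1 in 3 in si_CSNK2B, and in si_P300 PFKL passed in 9, ALDOC in 8, TPI1 in 7 and PGK1 in 5. GPI, PFKM and PGAM1 passed in si_P300 under all 19 alternatives.

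PFKFB enzymes make and break fructose 2,6-bisphosphate, the strongest activator of phosphofructokinase. PFKFB4 was 26.3, 20 and 10.5 CPM in the NC libraries, 32, 48.5 and 35.1 in those of si_CSNK2B, and 67.6, 30.7 and 26.7 in those of si_P300. Each knockdown library lay above NC, but the spread within groups was wide. It rose, with a log2 fold change of 1.02 ± 0.365 (edgeR adjusted p = 0.0481) in si_CSNK2B and 1.14 ± 0.364 (edgeR adjusted p = 0.0357) in si_P300. Without the first si_P300 library it was 0.60 ± 0.284 (edgeR adjusted p = 0.132) in si_P300. The call in si_P300 was lost as well without the second or the third NC library (edgeR adjusted p = 0.0865 and 0.131) or the first si_CSNK2B library (0.0501), with DESeq2 (adjusted p = 0.0685), with only the 6 libraries compared (0.0681) and by limma on log2(FPKM + 1) with no filter (0.0813). In si_CSNK2B it was lost without any 1 si_CSNK2B library (edgeR adjusted p = 0.0657, 0.155 and 0.0845) and without the second or the third NC library (0.101 and 0.166), as well as with DESeq2 (adjusted p = 0.0932), RLE factors (0.0502) and limma on log2(FPKM + 1) with no filter (0.0708). PFKFB3, the isozyme with the highest kinase activity, ran from 44.9 to 63.2 CPM and did not pass, at -0.0024 ± 0.134 (edgeR adjusted p = 0.992) in si_CSNK2B and 0.05 ± 0.134 (edgeR adjusted p = 0.796) in si_P300. PFKFB4 was 29.4% ± 7.83 of the summed FPKM of both in NC, 46.7% ± 6.49 in si_CSNK2B and 46.1% ± 8.36 in si_P300.

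Lactate dehydrogenases rose while the lactate exporters did not. LDHA, the subunit that favours making lactate from pyruvate, was 752, 653 and 541 CPM in the NC libraries, 1182, 983 and 855 in those of si_CSNK2B, and 1282, 1009 and 969.9 in those of si_P300. LDHB, the subunit that favours the reverse, was 609.5, 587 and 639 CPM in the NC libraries, 1147, 658 and 891 in those of si_CSNK2B, and 880.0, 995 and 1126 in those of si_P300. No knockdown library of either gene fell within NC. The log2 fold change of LDHA was 0.63 ± 0.159 (edgeR adjusted p = 0.00963) in si_CSNK2B and 0.75 ± 0.159 (edgeR adjusted p = 0.00515) in si_P300, and that of LDHB 0.55 ± 0.17 (edgeR adjusted p = 0.0257) in si_CSNK2B and 0.71 ± 0.171 (edgeR adjusted p = 0.00965) in si_P300. In si_CSNK2B, LDHA lost its call without the third NC library (edgeR adjusted p = 0.0517). LDHB lost it without any 1 NC library (edgeR adjusted p = 0.0628 to 0.0868) and without the first or the third si_CSNK2B library (0.0998 and 0.0593). In si_P300 both held in all 19 alternatives. LDHA held 37.8% ± 4.29 of their summed FPKM in NC, 39.8% ± 5.504 in si_CSNK2B and 38.8% ± 6.23 in si_P300, so the shares differed by less than the spread between libraries, and the sum went from 744 ± 36.4 to 1217 ± 239 and 1329.8 ± 34.5 FPKM.

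The monocarboxylate transporters carry lactate across the membrane. SLC16A3, the export form MCT4 and a HIF target, was 322, 298 and 296 CPM in the NC libraries, 173, 196 and 198 in those of si_CSNK2B, and 346, 221 and 188 in those of si_P300. In si_CSNK2B its libraries all lay under NC and it fell, at -0.69 ± 0.182 (edgeR adjusted p = 0.0125). Its si_P300 value was -0.28 ± 0.181 (edgeR adjusted p = 0.276). It was -0.58 ± 0.115 (edgeR adjusted p = 0.00278) there without the first library, which is no independent test of a fall. SLC16A1, the widely expressed MCT1, was 761, 728 and 735 CPM in the NC libraries, 687, 520.0 and 542 in those of si_CSNK2B, and 681, 655 and 662 in those of si_P300. It fell in si_CSNK2B at -0.35 ± 0.113 (edgeR adjusted p = 0.0328) and did not pass in si_P300, at -0.15 ± 0.112 (edgeR adjusted p = 0.327). The call of SLC16A1 was lost with library sizes alone (-0.22, edgeR adjusted p = 0.104), without any 1 NC library (0.064 to 0.105) and without the second or the third si_CSNK2B library (0.113 and 0.0981). By limma on log2(FPKM + 1) and log2(FPKM + 0.1) it was lost as well (adjusted p = 0.0871 and 0.0867), and on the former with no filter (0.105), where SLC16A3 was lost in si_CSNK2B too (0.0758).

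Pyruvate dehydrogenase kinases keep pyruvate out of mitochondria by switching off pyruvate dehydrogenase. PDK3 was 31.5, 36.6 and 27.8 CPM in the NC libraries, 43.2, 49.8 and 45.1 in those of si_CSNK2B, and 43.1, 37.5 and 49.2 in those of si_P300. It rose, at 0.53 ± 0.133 (edgeR adjusted p = 0.0102) in si_CSNK2B and 0.44 ± 0.133 (edgeR adjusted p = 0.0295) in si_P300, with all knockdown libraries above NC. Its call was lost in si_CSNK2B without the third NC library (edgeR adjusted p = 0.0576), and in si_P300 without the first or the third NC library (0.0953 and 0.135) or the third si_P300 library (0.122). PDK1, a classic HIF1A target, was 38, 36.2 and 25 CPM in the NC libraries, 25.8, 30.3 and 23.8 in those of si_CSNK2B, and 63.6, 21.6 and 20.4 in those of si_P300. The first si_P300 library was the highest of all and the other 2 the lowest. PDK1 did not pass, at -0.31 ± 0.36 (edgeR adjusted p = 0.526) in si_CSNK2B and 0.10 ± 0.356 (edgeR adjusted p = 0.865) in si_P300. Its si_P300 value without the first library was -0.66 ± 0.179 (edgeR adjusted p = 0.0154), which is no independent test of a fall. PDK3 was 46.2% ± 4.34 of the summed FPKM of both in NC, 62.5% ± 2.34 in si_CSNK2B and 55.5% ± 16.8 in si_P300.

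Carbonic anhydrase CA9, the tumour enzyme that acidifies the outside of hypoxic cells, was barely detected. It was 0.119, 0.474 and 0.233 CPM in the NC libraries, 0.816, 0.817 and 0.905 in those of si_CSNK2B, and 2.09, 0.413 and 0.55 in those of si_P300, and its gene lies over ARHGEF39 on the other strand. It passed in si_P300, at 1.90 ± 0.654 (edgeR adjusted p = 0.0484), and was 1.59 ± 0.678 (edgeR adjusted p = 0.0889) in si_CSNK2B. Without the first si_P300 library it was 0.80 ± 0.571 (edgeR adjusted p = 0.321) in si_P300 and 1.59 (edgeR adjusted p = 0.0186) in si_CSNK2B. The call in si_P300 was lost without any 1 library of NC (edgeR adjusted p = 0.051 to 0.162) or si_CSNK2B (0.0637 to 0.0681), and by limma on log2(FPKM + 1) with no filter (adjusted p = 0.161). CA12, a related enzyme, was at 0 to 0.296 CPM, around the floor, and was not tested.

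BNIP3 and BNIP3L, receptors that mark mitochondria for removal, differed in level, with BNIP3 at 0.362% ± 0.223 of the summed FPKM of both in NC. BNIP3, often a strongly induced HIF target, was 0.0593 to 0.52 CPM and was not tested, with 39 named pseudogenes in GENCODE 29. BNIP3L was 89.8, 87.6 and 65.7 CPM in the NC libraries, 84.1, 96.1 and 62.3 in those of si_CSNK2B, and 178, 73.3 and 67.3 in those of si_P300. Only the first si_P300 library lay clear of the others. BNIP3L did not pass, at -0.0041 ± 0.314 (edgeR adjusted p = 0.993) in si_CSNK2B and 0.39 ± 0.313 (edgeR adjusted p = 0.372) in si_P300, and was -0.21 ± 0.176 (edgeR adjusted p = 0.411) in si_P300 without that library.

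P4HA2 and P4HA1 are catalytic subunits of the collagen prolyl hydroxylases, which need oxygen to modify collagen. P4HA2 was 101, 84.7 and 79.4 CPM in the NC libraries, 134, 159 and 132 in those of si_CSNK2B, and 161, 171 and 124 in those of si_P300. All knockdown libraries lay above NC. P4HA2 rose, with a log2 fold change of 0.68 ± 0.141 (edgeR adjusted p = 0.00336) in si_CSNK2B and 0.78 ± 0.141 (edgeR adjusted p = 0.00203) in si_P300, and the call held in all 19 alternatives of each comparison. The gene lies over PDLIM4 and SLC22A4 on the other strand, and the strand setting of the counts is not stated. P4HA1 was 108, 102 and 80.8 CPM in the NC libraries, 132, 144 and 100.2 in those of si_CSNK2B, and 181, 108 and 100.3 in those of si_P300. It did not pass, at 0.37 ± 0.215 (edgeR adjusted p = 0.203) in si_CSNK2B and 0.42 ± 0.215 (edgeR adjusted p = 0.163) in si_P300, and was 0.10 ± 0.159 (edgeR adjusted p = 0.662) in si_P300 without the first library.

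The remaining HIF targets did not pass in either comparison, and their si_P300 libraries were split. ADM, which encodes the vasodilator peptide adrenomedullin, was 11.3, 9.36 and 5.18 CPM in the NC libraries, 4.49, 7.35 and 2.84 in those of si_CSNK2B, and 44.1, 4.06 and 3.36 in those of si_P300. ANKRD37, a small ankyrin repeat gene induced by HIF1A, was 21.8, 14.4 and 10.8 CPM in the NC libraries, 6.24, 10.9 and 5.81 in those of si_CSNK2B, and 48.5, 3.93 and 3.55 in those of si_P300. In both, the first si_P300 library was the highest of 9, and the other 2 si_P300 libraries lay under all 3 NC libraries. The log2 fold change of ADM was -0.83 ± 0.82 (edgeR adjusted p = 0.458) in si_CSNK2B and 1.01 ± 0.765 (edgeR adjusted p = 0.346) in si_P300, and that of ANKRD37 -1.04 ± 0.791 (edgeR adjusted p = 0.329) in si_CSNK2B and 0.27 ± 0.75 (edgeR adjusted p = 0.816) in si_P300. Without the first library, in si_P300 ADM was -1.21 ± 0.384 (edgeR adjusted p = 0.0317) and ANKRD37 -2.07 ± 0.339 (edgeR adjusted p = 0.000794). That library was left out for its high level in such genes, so these values are no independent test of a fall. ANKRD37 lies over UFSP2 on the other strand.

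NDRG1, a stress-induced gene widely used as a hypoxia marker, was 127, 108 and 81.9 CPM in the NC libraries, 74.5, 90.6 and 64.9 in those of si_CSNK2B, and 195, 61.9 and 53.7 in those of si_P300. KDM3A, a histone demethylase that HIF induces, was 86.2, 94.1 and 67.4 CPM in the NC libraries, 69.9, 75.1 and 50.5 in those of si_CSNK2B, and 105, 59.3 and 56.9 in those of si_P300. The first si_P300 library was again the highest for both. NDRG1 was -0.46 ± 0.389 (edgeR adjusted p = 0.376) in si_CSNK2B and -0.03 ± 0.387 (edgeR adjusted p = 0.964) in si_P300, and KDM3A -0.34 ± 0.23 (edgeR adjusted p = 0.27) in si_CSNK2B and -0.16 ± 0.229 (edgeR adjusted p = 0.629) in si_P300, so neither passed. In si_P300 without the first library, NDRG1 was -0.87 ± 0.183 (edgeR adjusted p = 0.00377) and KDM3A -0.51 ± 0.173 (edgeR adjusted p = 0.0434). As above, leaving that library out is no independent test of a fall. In si_CSNK2B, with that library left out of the model, NDRG1 passed at -0.47 (edgeR adjusted p = 0.0349), ANKRD37 at -1.04 (0.00957) and EGLN3 at 0.50 (0.0259), and EGLN1 passed without the second si_CSNK2B library at -0.45 (0.0121). With only the 6 libraries of the comparison in the model, ANKRD37, NDRG1, EGLN3, SLC2A3, ALDOC and CA9 passed in si_CSNK2B (edgeR adjusted p = 0.0115, 0.0378, 0.0289, 0.0284, 0.0283 and 0.018).

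**Figure D5:**
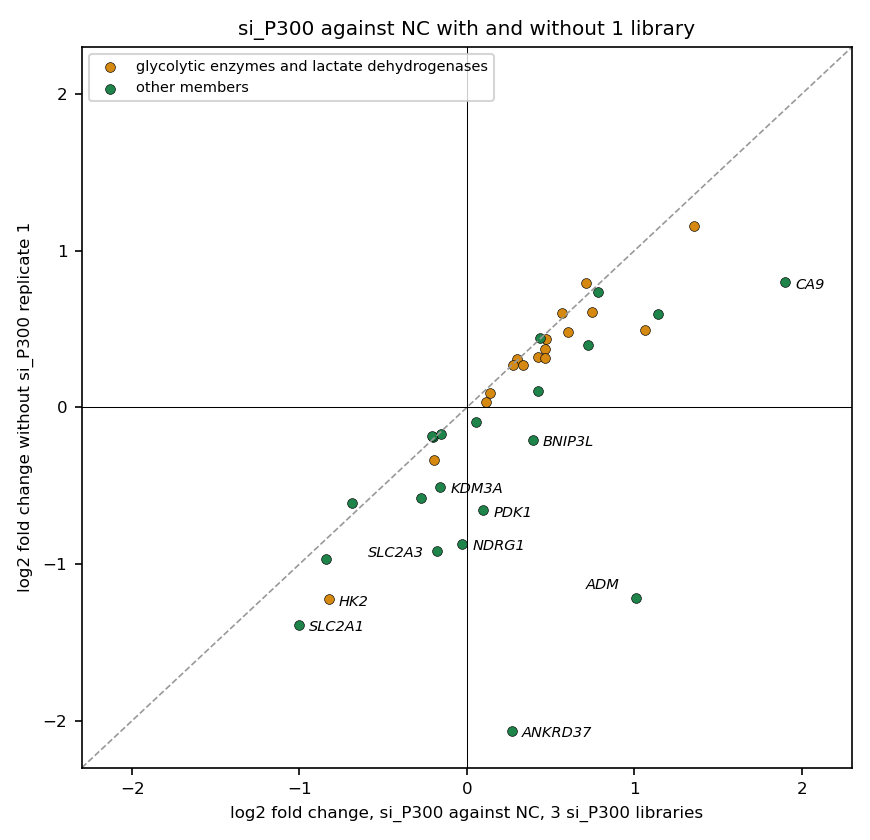
Each point is a tested member, with its log2 fold change in si_P300 against NC from all 3 si_P300 libraries on the horizontal axis and without the first si_P300 library on the vertical axis; the dashed line marks equal values. Most enzymes, in orange, lie near the line, and ADM, ANKRD37, NDRG1, PDK1 and SLC2A3 among the other members in green lie well below it.

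Levels between genes were compared as FPKM, which divides by transcript length. In NC, GAPDH was the most abundant member at 2163 ± 172 FPKM (SD, n = 3), ranked 21 of all genes in the table. ENO1 followed at 826 ± 75.3, SLC2A1 at 774 ± 99.5, ALDOA at 566 ± 51.5 and PKM at 538 ± 27.6. The NC libraries of ENO1 and SLC2A1 overlapped, as did those of ALDOA and PKM, so neither pair is ordered beyond its spread. Of 40 members, 14 were at 100 FPKM or more, 17 at 10 to 100, 5 at 1 to 10 and 4 under 1, and 19 lay in the top 10% of genes. In 24 of the 39 pairs of neighbours in this order the NC libraries overlapped.

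Together the 17 enzymes held 1.21%, 1.11% and 1.06% of all FPKM in the NC libraries, 1.57%, 1.45% and 1.38% in si_CSNK2B, and 1.82%, 1.44% and 1.54% in si_P300. Every knockdown library lay above NC. The means were 1.13% ± 0.0801, 1.47% ± 0.0955 and 1.60% ± 0.195. FPKM carry no TMM adjustment, and the mean TMM factors were 0.947 in NC, 1.03 in si_CSNK2B and 1.02 in si_P300. The part of this scaling in the differences between groups was not tested. The summed FPKM of the 23 other members was 1722 ± 217 in NC, 1134 ± 153 in si_CSNK2B and 1427 ± 555 in si_P300, where the first library held 2067 and the others 1085 and 1128. SLC2A1 alone held 774 ± 99.5 of it in NC, 315 ± 66.3 in si_CSNK2B and 418 ± 177 in si_P300. The sum thus rests largely on that gene and does not describe these members as a group.

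The 2 knockdown groups were also compared directly. At an edgeR adjusted p under 0.05, 0 of 13129 genes were called (0%), and 0 of 38 members. Libraries of the 2 groups did not overlap in 2 of 38 members, against 7.14% of all tested genes. At an unadjusted p under 0.05 there were 661 genes and 3 members, and DESeq2 called 8 genes and 0 members. The value of si_CSNK2B against si_P300 was below 0 in 34 of 38 members, against 53.7% of all tested genes, and the first si_P300 library, high in many members, enters each of these values. The largest gap among members was in ADM, at -1.84 ± 0.808 (edgeR adjusted p = 0.946) for si_CSNK2B against si_P300, where the first si_P300 library was 11.9 times the mean of the other 2. For HIF1A the difference was -0.15 with a 95% interval of -0.48 to 0.19, for SLC2A1 -0.42 with -0.93 to 0.10, and for HK2 -0.44 with -0.92 to 0.05. A p that misses the threshold does not show that the groups are alike.

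Among 15 tested regulators and coactivators of HIF, 3 were higher and 4 lower in si_CSNK2B and 2 higher and 4 lower in si_P300. Over all tested genes 34.0% and 28.3% were called, and the counts of this and the following lists are to be read against these shares. CREBBP, the P300 paralog, was 127, 126 and 132 CPM in the NC libraries, 68.6, 83.6 and 62.7 in those of si_CSNK2B, and 68.2, 74.3 and 74.2 in those of si_P300. It fell at -0.84 ± 0.114 (edgeR adjusted p = 0.000233) in si_CSNK2B and -0.83 ± 0.114 (edgeR adjusted p = 0.000363) in si_P300, while EP300 was -0.27 ± 0.127 (edgeR adjusted p = 0.119) in si_CSNK2B. SIAH1 and SIAH2, ubiquitin ligases that act on the HIF hydroxylases, fell as well. SIAH2 was -1.17 ± 0.146 (edgeR adjusted p = 0.000127) in si_CSNK2B and -0.80 ± 0.144 (edgeR adjusted p = 0.00199) in si_P300, and SIAH1 -0.74 ± 0.112 (edgeR adjusted p = 0.00048) in si_CSNK2B and -0.59 ± 0.112 (edgeR adjusted p = 0.00251) in si_P300. RBX1, a subunit of the VHL ligase, rose at 0.70 ± 0.121 (edgeR adjusted p = 0.00111) in si_CSNK2B and 0.60 ± 0.121 (edgeR adjusted p = 0.00358) in si_P300.

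Among 22 further HIF targets tested, 5 were higher and 5 lower in si_CSNK2B and 6 higher and 4 lower in si_P300, where 34.0% and 28.3% of all tested genes were called. VEGFA, the angiogenic growth factor, was 705, 709 and 667 CPM in the NC libraries, 187, 244 and 191 in those of si_CSNK2B, and 305, 154 and 228 in those of si_P300. All knockdown libraries lay far under NC. Its log2 fold change was -1.74 ± 0.204 (edgeR adjusted p = 8.22e-05) in si_CSNK2B and -1.60 ± 0.203 (edgeR adjusted p = 0.000212) in si_P300. TFRC, the transferrin receptor, rose at 0.66 ± 0.125 (edgeR adjusted p = 0.00192) in si_CSNK2B and 0.71 ± 0.125 (edgeR adjusted p = 0.00174) in si_P300, and RNASE4, a secreted ribonuclease, at 0.96 ± 0.156 (edgeR adjusted p = 0.000785) in si_CSNK2B and 0.82 ± 0.156 (edgeR adjusted p = 0.00258) in si_P300. The first si_P300 library exceeded the mean of the other 2 by 1.5 times or more in 10 of these 22 genes, against 9.73% of all tested genes.

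Of 12 tested genes of gluconeogenesis and glycogen, 3 were higher and 2 lower in si_CSNK2B and 2 were higher and 2 lower in si_P300, where 34.0% and 28.3% of all tested genes were called. PCK2, the mitochondrial phosphoenolpyruvate carboxykinase, was 531, 457 and 481 CPM in the NC libraries, 94.3, 103 and 60.2 in those of si_CSNK2B, and 146, 111 and 129 in those of si_P300. It fell at -2.51 ± 0.185 (edgeR adjusted p = 3.72e-06) in si_CSNK2B and -1.93 ± 0.18 (edgeR adjusted p = 3.17e-05) in si_P300. PYGB, the brain-type glycogen phosphorylase, was 332, 299 and 339.8 CPM in the NC libraries, 107, 122 and 111 in those of si_CSNK2B, and 120.2, 128 and 125 in those of si_P300, and fell at -1.52 ± 0.0995 (edgeR adjusted p = 1.89e-06) in si_CSNK2B and -1.38 ± 0.099 (edgeR adjusted p = 5.52e-06) in si_P300. GYS1, the muscle-type glycogen synthase, was 55.6, 51.1 and 49.1 CPM in the NC libraries, 106, 123 and 110.5 in those of si_CSNK2B, and 87.4, 110.2 and 101 in those of si_P300, and rose at 1.12 ± 0.114 (edgeR adjusted p = 3.33e-05) in si_CSNK2B and 0.94 ± 0.114 (edgeR adjusted p = 0.000165) in si_P300. PGM2, a phosphopentomutase, rose at 0.40 ± 0.114 (edgeR adjusted p = 0.019) in si_CSNK2B and 0.53 ± 0.114 (edgeR adjusted p = 0.00548) in si_P300.

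Of 9 tested further glycolytic enzymes, 3 were higher and 1, HKDC1, lower in each comparison, where 34.0% and 28.3% of all tested genes were called. MINPP1, a phosphatase that also acts on bisphosphoglycerate, rose at 0.53 ± 0.108 (edgeR adjusted p = 0.00306) in si_CSNK2B and 0.48 ± 0.108 (edgeR adjusted p = 0.00693) in si_P300. GAPDHS, the sperm isozyme, rose in si_CSNK2B at 1.12 ± 0.317 (edgeR adjusted p = 0.0177), and TIGAR, a fructose 2,6-bisphosphatase, in si_P300 at 0.34 ± 0.11 (edgeR adjusted p = 0.0385).

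Of 13 tested further glucose transporters and glucose sensors, 3 were higher and 1 lower in si_CSNK2B and 2 higher and 1 lower in si_P300, near the 34.0% and 28.3% of all tested genes. SLC2A4, the insulin-responsive GLUT4, was 4.16, 3.26 and 3.9 CPM in the NC libraries, 6.65, 8.77 and 6.46 in those of si_CSNK2B, and 6.65, 8.96 and 9.36 in those of si_P300, and rose at 0.95 ± 0.206 (edgeR adjusted p = 0.00447) in si_CSNK2B and 1.14 ± 0.205 (edgeR adjusted p = 0.00197) in si_P300. SLC2A12, or GLUT12, rose at 0.98 ± 0.291 (edgeR adjusted p = 0.0226) in si_CSNK2B and 1.25 ± 0.289 (edgeR adjusted p = 0.00769) in si_P300. MLX, partner of the glucose sensors MLXIP and MLXIPL, fell at -0.45 ± 0.0967 (edgeR adjusted p = 0.00417) in si_CSNK2B and -0.42 ± 0.0966 (edgeR adjusted p = 0.00726) in si_P300, and MLXIP rose in si_CSNK2B at 0.32 ± 0.0991 (edgeR adjusted p = 0.0269). TXNIP, a glucose-induced brake on glucose uptake, was 40.3, 38.5 and 36.9 CPM in the NC libraries, 41.5, 13 and 50.1 in those of si_CSNK2B, and 10, 45.4 and 41.9 in those of si_P300, with the second si_CSNK2B and first si_P300 libraries far under the other 7. It did not pass, at -0.14 ± 0.488 (edgeR adjusted p = 0.845) in si_CSNK2B and -0.26 ± 0.489 (edgeR adjusted p = 0.727) in si_P300.

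In the pentose phosphate pathway, 1 of 7 tested genes was called in each comparison, PGLS, the 6-phosphogluconolactonase, which fell at -0.65 ± 0.14 (edgeR adjusted p = 0.00398) in si_CSNK2B and -0.45 ± 0.139 (edgeR adjusted p = 0.0297) in si_P300. Of 11 tested genes of pyruvate entry into mitochondria, 1 was higher and 2 lower in si_CSNK2B and 2 were higher in si_P300. MPC2, a subunit of the mitochondrial pyruvate carrier, rose at 0.53 ± 0.115 (edgeR adjusted p = 0.0042) in si_CSNK2B and 0.41 ± 0.115 (edgeR adjusted p = 0.0211) in si_P300, and MPC1, its partner, rose in si_P300 at 0.39 ± 0.114 (edgeR adjusted p = 0.0229). PDP1, the phosphatase that switches pyruvate dehydrogenase on, and DLD, its dihydrolipoamide dehydrogenase subunit, fell in si_CSNK2B at -0.34 ± 0.113 (edgeR adjusted p = 0.0367) and -0.28 ± 0.0982 (edgeR adjusted p = 0.0462). Of 7 tested genes of lactate and pH handling, 1 was lower in si_CSNK2B and 2 in si_P300. CA2, a cytosolic carbonic anhydrase, fell in si_P300 at -0.94 ± 0.313 (edgeR adjusted p = 0.0415).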

How the data were processed

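Per the labels, 9 RNA libraries were sequenced by BGISEQ from one end, with 50 bp per read. The authors deposited 1 table of estimated counts and FPKM per gene, made with HISAT and Bowtie2 on GRCh38.p13 per the submitters' processing notes, while their roles, the counting tool, the annotation and the strand setting are not given in the sources used here. Of the deposited values, 24.7% to 39.4% of estimated counts per library were whole, and all were rounded before testing. The FPKM values, scaled by length and depth by the authors, served to compare levels between genes and to give sums and shares per group. They carry no TMM adjustment, so FPKM sums differ between groups in scaling as well. A further 18 single-library columns could not be tied to a labelled sample and were not used.

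Genes were kept by edgeR 4.0.16 (R 4.3.3) filterByExpr with a minimum count of 10, leaving 13129 of 17529. CPM are counts scaled to TMM-adjusted library size. A prior count of 2 was used for log2 CPM of single libraries, as in the heat map, and not for fold changes. A quasi-likelihood model of all 9 libraries (glmQLFit and glmQLFTest) gave 3 contrasts, with Benjamini-Hochberg adjustment over all tested genes and a call at an adjusted p under 0.05. Standard errors were derived from the fold change and the F statistic of the fit that gave each value. The 95% intervals were built from them with a t quantile, and other errors are SDs of 3 libraries. Alternatives were DESeq2 1.42.0, scaling by RLE or by library size alone, testing with no filter or with a stricter one (a mean count of 50, and 1 CPM in 3 libraries), the 6 compared libraries, a replicate block, leaving out each library, limma 3.58.1 on log2(FPKM + 1) and log2(FPKM + 0.1) of the deposited values, and an adjusted p under 0.01. The labels call the libraries biological replicates without naming separate cultures, so p-values measure the spread between these libraries. With 3 against 3, an exact two-sided permutation test cannot go below 0.1, and none was used.

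All members may be named. From 8 further pathway lists, up to 4 called genes with the lowest p per list and comparison are named, besides EP300, CREBBP, VEGFA and TXNIP whatever their values, and a few genes that this rule names are not reported here. The members and lists were chosen with earlier results of these data known. Overlapping genes and pseudogenes were read from GENCODE 29, and promoters from RefSeq (GRCh38.p14). Overlaps are named above for a few genes only, and other genes have them too. For example, PFKM lies over SENP1 and SLC16A3 over CSNK1D on the other strand. PFKFB4 lies over UCN2, PGK1 over ATP7A, EGLN3 over SPTSSA and CSNK2B over LY6G5B on the same strand.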

Additional observations from a re-analysis of the deposited data

How the results depend on the processing

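Of 19 alternatives in each comparison with NC, HIF1A, EPAS1, SLC2A1, PFKM and P4HA2 passed the test in the same direction in all. Genes called went from 4462 to 2525 in si_CSNK2B and from 3709 to 1900 in si_P300 at an adjusted p under 0.01, and members called from 18 to 8 and from 18 to 9. Leaving out 1 library at a time gave 2928 to 5166 genes and 8 to 25 members in si_CSNK2B, and 2191 to 3882 genes and 10 to 20 members in si_P300. Genes were fewest without the third NC library in both comparisons, and 2322 without the first in si_P300. Between the knockdown groups DESeq2 called 8 genes and edgeR 0. To look for pairing, the group mean of each gene was subtracted from log2 CPM, as whole libraries correlated at 0.955 to 0.989 between groups. Between same-numbered libraries, these deviations correlated at 0.000699, -0.0534 and -0.112 for si_CSNK2B and NC. For si_P300 and NC the values were -0.0748, -0.290 and 0.0606. Between the knockdown groups they were -0.182, 0.0262 and 0.0335. The deviations did not each correlate best with their own number. With 3 libraries per group, centred on their own mean, these values cannot settle whether the replicate numbers pair the libraries. A replicate block called 3828 and 3012 genes and 20 and 17 members, and 0 genes between the knockdown groups. With it TPI1 did not pass in si_CSNK2B (edgeR adjusted p = 0.0574), nor ENO2, PDK3 and CA9 in si_P300 (0.0601, 0.0559 and 0.0903), while EGLN3, ALDOA and ALDOC passed in si_CSNK2B (0.0362, 0.0342 and 0.00765) and ALDOC and PGK1 in si_P300 (0.00421 and 0.0393). Some members that did not pass changed sign, and the cause was not tested. In si_CSNK2B, the log2 fold change of PFKFB3 was 0.12 with library sizes alone, 0.029 with the stricter filter, 0.0017 in the 6 libraries, 0.00096 with the replicate block and 0.11, 0.12 and 0.11 on the 3 FPKM settings. BNIP3L was 0.12 with library sizes alone, 0.026 with the stricter filter and 0.11 on the FPKM settings. In si_P300, PDK1 was -0.025 with the replicate block and -0.040, -0.061 and -0.040 on the FPKM settings, ANKRD37 -0.33 with the block and -0.56, -0.65 and -0.56, and NDRG1 0.092 with library sizes alone. Without 1 library the values ran, in si_CSNK2B, from -0.0053 to 0.14 for PKM, -0.061 to 0.088 for PFKFB3 and -0.15 to 0.15 for BNIP3L. In si_P300 they ran from -0.91 to 0.14 for SLC2A3, -0.095 to 0.16 for PFKFB3, -0.66 to 0.37 for PDK1 and -0.21 to 0.63 for BNIP3L. The others were ADM at -1.21 to 1.49, NDRG1 at -0.87 to 0.28 and ANKRD37 at -2.07 to 0.75, each lowest without the first si_P300 library. Depth limits ENO2, CA9, CA12 and BNIP3, which lay near the floor.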
